A study of Homo sapiens with 6 samples.

Results

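The SATB1 peaks of cells exposed to amyloid-β were compared with those of vehicle-treated cells, gene by gene. The members were all peaks of both SATB1 lists on chromosomes 1 to 22 and X, 2792 after vehicle and 5817 after Aβ1–42, together 8609 of the 23953 peaks in the 4 lists of the series. The other lists held peaks of 82-kDa ChAT, a nuclear form of choline acetyltransferase. All cells were SH-SY5Y, a human neuroblastoma line, here 1 line stably expressing 82-kDa ChAT and differentiated with retinoic acid for 3 days. Some cells then received 100 nM Aβ1–42 oligomers for 4 h and the others only the vehicle, Ham's F-12 media, with 3 plates for each treatment. Chromatin precipitated with an antibody to SATB1 gave 1 library for each treatment. The values therefore carry no replicate error, no test between treatments was possible, and treatment cannot be told apart from library. The study gives only a range of read numbers over its samples, so the depth of either library alone is unknown. A peak list holds no expression, so markers of the cell type could not be checked.

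SATB1 is a chromatin organiser of the nucleus. It binds AT-rich DNA that unwinds easily, anchors such sites to the nuclear matrix as the bases of chromatin loops, and brings chromatin-modifying enzymes to them. In neurons it is known for roles in the maturation of cortical interneurons. Alu elements, which recur in the results, are short repeats present in very many similar copies and are most frequent in gene-rich DNA.

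The sequences of 2 groups of peaks are shown first, all on hg38, plus strand. An Alu-matching peak is one that blastn aligned to a 287 nt Alu copy. By this measure the peaks shown did not match Alu, but it can miss a short end of an Alu copy inside a peak. The first group shows peaks in genes with peaks of 1 list only. Capitals mark runs of at least 6 bases of A or T. The peak in DNAH6 (vehicle, chr2:84545914-84546015) had a GC content of 27.5% and 4 such runs. The peak in TRIO (vehicle, chr5:14262705-14262783) had a GC content of 57.0%, and that in FMOD (Aβ1–42, chr1:203349716-203349842) of 52.0%, and neither is capitalised because neither held such a run.
DNAH6: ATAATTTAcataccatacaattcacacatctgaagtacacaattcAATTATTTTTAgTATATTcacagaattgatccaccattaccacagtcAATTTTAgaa
TRIO: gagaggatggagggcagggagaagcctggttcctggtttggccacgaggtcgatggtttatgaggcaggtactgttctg
FMOD: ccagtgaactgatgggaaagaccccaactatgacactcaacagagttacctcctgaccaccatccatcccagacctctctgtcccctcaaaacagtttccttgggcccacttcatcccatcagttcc

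The second group shows the bases shared by a vehicle peak and an Aβ1–42 peak that overlapped inside a gene. In ANAPC16 (chr10:72225987-72226042) capitals again mark runs of A or T. Whether the long run of T near its end belongs to an Alu copy was not tested. In PLEKHG4B (chr5:110300-110450), PTPRN2 (chr7:158522018-158522256) and SBF2 (chr11:10249747-10249881) capitals mark the most frequent run of 12 bases, which recurred every 47 nt in PTPRN2 and every 28 nt in SBF2. The part shared in AMPH (chr7:38564187-38564273) held no run of at least 6 A or T.
ANAPC16: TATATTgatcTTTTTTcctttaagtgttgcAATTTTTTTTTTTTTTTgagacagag
AMPH: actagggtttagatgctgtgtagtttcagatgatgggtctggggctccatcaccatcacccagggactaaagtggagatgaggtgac
PLEKHG4B: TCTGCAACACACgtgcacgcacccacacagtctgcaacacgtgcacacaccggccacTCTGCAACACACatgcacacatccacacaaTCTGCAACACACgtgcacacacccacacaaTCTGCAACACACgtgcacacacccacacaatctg
PTPRN2: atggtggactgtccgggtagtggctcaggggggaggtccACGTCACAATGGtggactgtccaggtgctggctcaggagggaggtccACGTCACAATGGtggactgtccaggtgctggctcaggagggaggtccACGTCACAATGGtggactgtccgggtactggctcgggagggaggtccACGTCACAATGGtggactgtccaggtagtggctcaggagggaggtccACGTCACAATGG
SBF2: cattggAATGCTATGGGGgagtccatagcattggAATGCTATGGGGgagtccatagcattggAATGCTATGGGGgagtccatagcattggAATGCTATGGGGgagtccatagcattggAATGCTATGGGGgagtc

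Most protein-coding genes with a SATB1 peak held peaks of 1 list only, and the Aβ1–42 list reached more genes. Of 19962 protein-coding genes, 965 (4.83%) held a vehicle peak and 2410 (12.1%) an Aβ1–42 peak. Peaks of the vehicle list alone lay in 647 genes (3.24%), peaks of the Aβ1–42 list alone in 2092 (10.5%), and peaks of both lists in 318 (1.59%). The genes in both lists were 33.0% of the genes with a vehicle peak and 13.2% of those with an Aβ1–42 peak. Protein-coding genes held 1036 of the vehicle peaks (37.1%, 95% interval 35.3 to 38.9) and 2768 of the Aβ1–42 peaks (47.6%, interval 46.3 to 48.9), and cover 42.9% of these chromosomes. Intervals for shares are exact Clopper-Pearson intervals, cover counting error over the peaks or genes of 1 library only, and treat these as independent. Among peaks without an Alu match the shares were 36.4% and 35.7%. A peak that touched several genes counted for each of them, which gave 1110 and 2960 pairs of a peak and a gene.

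At equal list sizes the gap was smaller. If 2792 of the 5817 Aβ1–42 peaks were kept, each with equal probability, 1274 genes would on average hold an Aβ1–42 peak, against 965 with a vehicle peak. The classes would then hold 783.0 genes with vehicle peaks only, 1092 with Aβ1–42 peaks only and 182.0 with both. Without Alu-matching peaks the order was the opposite. Then 789 genes held vehicle peaks only, 401 Aβ1–42 peaks only and 106 both, from lists of 2646 and 1451 peaks. At 1451 peaks the vehicle list without Alu matches would on average reach 519.8 genes, close to the 507 of the Aβ1–42 list.

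**Figure D1:**
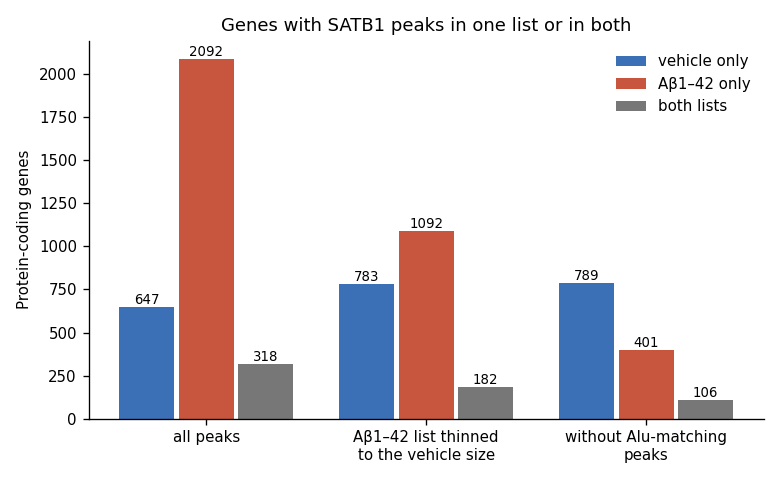
Number of protein-coding genes (vertical axis) with SATB1 peaks in the vehicle list only, the Aβ1–42 list only or both, for all peaks, for the Aβ1–42 list thinned to the size of the vehicle list (expected numbers) and for peaks without an Alu match. Aβ1–42 only is the tallest bar in the first 2 sets (2092 and 1092 genes), and vehicle only in the third (789 genes).

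The share of genes with a peak rose with gene length in both lists. In the shortest of 20 equal bins of gene length, 0.100% of genes held a vehicle peak and 0.200% an Aβ1–42 peak. In the longest bin, genes of 266.4 kb or more, the shares were 31.4% and 49.1%. The median length was 117.1 kb for genes with vehicle peaks only, 87.5 kb for genes with Aβ1–42 peaks only and 322.7 kb for genes with both, against 27.5 kb for all protein-coding genes. Of the genes in both lists, 56.9% were in the longest bin.

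**Figure D2:**
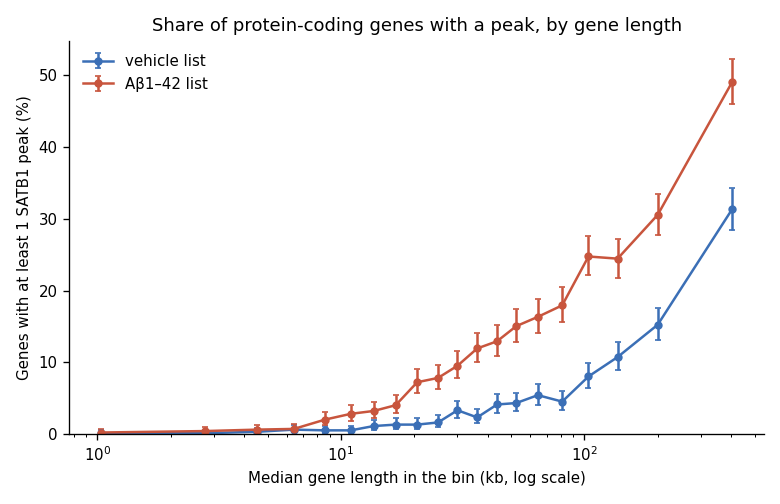
Share of protein-coding genes with at least 1 SATB1 peak (vertical axis, percent) against the median gene length of 20 bins of equal size (horizontal axis, kb, log scale); bars are 95% binomial intervals. Both lists rise with length, to 31.4% (vehicle) and 49.1% (Aβ1–42) in the longest bin.

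Once length was taken into account, the number of genes in both lists was close to what the lists give separately. With the share of genes with a peak taken from each length bin and the lists treated as unrelated, 284.0 genes were expected in both and 318 were observed, a ratio of 1.12. In the longest bin 181 were observed and 153.7 expected, and in all other bins 137 and 130.3. With 1 rate a list times gene length in place of bins, 345.5 were expected and the ratio fell below 1, to 0.920. Without Alu-matching peaks 106 genes were observed and 72.5 expected by length bins, a ratio of 1.46, and the ratio by rate was 1.18.

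The density of Aβ1–42 peaks in genes rose with the density of Alu matches, and that of all vehicle peaks together did not. Genes of 20 kb or more were put in 5 groups of equal size by Alu matches per 10 kb. From the group with fewest to the group with most, Aβ1–42 peaks numbered 1.05, 1.69, 2.04, 3.42 and 4.96 per Mb of gene. Vehicle peaks numbered 0.816, 0.853, 0.799, 0.792 and 0.751 per Mb. Those without an Alu match numbered 0.796, 0.805, 0.740, 0.680 and 0.617 per Mb. The vehicle peaks with an Alu match were few, and per Mb they also rose from group to group. Aβ1–42 peaks without an Alu match stayed between 0.343 and 0.425 per Mb. The Alu-matching Aβ1–42 peaks, counted per 1000 Alu matches in these genes, stayed between 3.70 and 4.47 in the 5 groups, so their number followed the number of Alu matches.

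**Figure D3:**
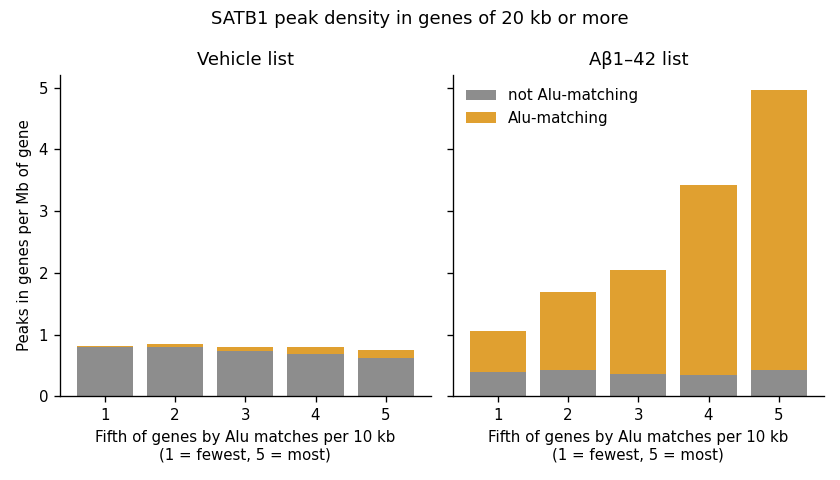
Peaks in genes per Mb of gene (vertical axis) for 5 equal groups of genes of 20 kb or more, ordered by Alu matches per 10 kb (horizontal axis); grey is peaks without and orange peaks with an Alu match. The orange part of the Aβ1–42 list grows with Alu density up to a total of 4.96 per Mb, and the total of the vehicle list stays between 0.751 and 0.853.

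Alu density also differed between the classes of genes. Genes with Aβ1–42 peaks only held 6.49 Alu matches per 10 kb on average, against 5.01 in all genes of their length bins. Genes with vehicle peaks only held 4.32 against 4.73, and genes with both 4.15 against 3.80. Genes that entered a class through Alu-matching peaks hold Alu matches by construction. Without Alu-matching peaks of either list, genes with Aβ1–42 peaks only held 4.63 against 4.68, and genes with both 3.12 against 3.48. The class with vehicle peaks only leaves out each gene with an Aβ1–42 peak, and most of those peaks matched Alu. Without Alu-matching peaks of either list, genes with vehicle peaks only held 4.17 against 4.51. The part of this exclusion in the lower Alu density was not tested. In 1695 of the 2092 genes with Aβ1–42 peaks only (81.0%), each Aβ1–42 peak matched Alu. This is near the 81.3% of all Aβ1–42 peaks in genes that matched Alu, against 7.05% of the vehicle peaks. The same held for 208 of the 318 genes in both lists. In the vehicle list, 48 of 647 genes with vehicle peaks only held Alu-matching peaks alone.

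The Alu copies under Aβ1–42 peaks were like other Alu copies in orientation and more often long. Of 2201 such peaks in genes of 1 strand, 54.6% lay on Alu copies antisense to the gene, against 54.7% of all Alu matches in such genes. Over all of chromosomes 1 to 22 and X, 82.1% of the Alu-matching Aβ1–42 peaks lay on a match of at least 280 nt. Of all Alu matches, 59.5% reached this length, and 65.1% of the 146 Alu-matching vehicle peaks lay on such a match. Each Alu match counted once whatever its length, and a longer match offers more bases for a peak to touch. Peaks and matches are therefore not alike in this comparison. More than 50% of the Alu-matching Aβ1–42 peaks covered each base from 83 to 200 of the 287 nt copy. Coverage was highest at base 122, at 67.5%. Alu-matching vehicle peaks covered base 122 in 26.7%, with their highest coverage at bases 221 to 224, at 56.2%. An aligned stretch covers middle bases of the copy more readily than its ends, and no expected coverage is given. How reads that fit many copies were placed was not tested.

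The peaks lay mostly in introns. In genes with a MANE Select transcript, the representative transcript of a gene, 93.9% of vehicle peaks and 97.7% of Aβ1–42 peaks inside that transcript touched no exon. Without Alu matches the shares were 93.5% and 93.7%. The first intron held 21.5% of the intronic vehicle peaks (interval 18.8 to 24.4) and 25.3% of the intronic Aβ1–42 peaks (interval 23.6 to 27.1), and first introns make up 24.9% of intron length. Within 2000 nt of a gene start lay 17 of 1110 pairs of a vehicle peak and a gene and 71 of 2960 pairs for Aβ1–42. Without Alu matches these were 17 of 1028 and 21 of 544. The share of gene length this close to a start is not given, so these counts have no baseline.

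Runs of A or T, a rough measure of AT-rich DNA, were not more frequent in these peaks than in genes at large. The study reported a SATB1 motif with A or T bases on both sides of a C in both SATB1 lists. That motif was not counted here. In the central 100 nt of each peak without an Alu match, a run of at least 6 bases of A or T was present in 62.3% of vehicle peaks (interval 59.1 to 65.3) and 59.8% of Aβ1–42 peaks (interval 55.5 to 64.1). In windows of the same size taken every 10000 nt along genes it was present in 73.8%. Alu copies and other repeats were left in these windows, so the sets are not alike. Alu-matching Aβ1–42 peaks had it in 71.5%. The median GC content of these central windows was 42% in vehicle and 43% in Aβ1–42 peaks without an Alu match, 52% in Alu-matching Aβ1–42 peaks and 41% along genes. The pentamer CATTC, on either strand, was present in 20.2%, 21.4%, 16.2% and 19.6% of the same 4 sets.

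Genes with most peaks in the vehicle list only were few and held at most 3 peaks. They included TRIO, a guanine nucleotide exchange factor of axon growth, at 388.8 kb, DNAH6, a dynein heavy chain of cilia, at 303.1 kb, and LINGO2, a neuronal leucine-rich repeat membrane protein, at 1276 kb, each with 3 vehicle peaks. NBPF19, of a recently duplicated gene family, and an unnamed gene on chromosome 4 also held 3. CD70, a ligand of the tumour necrosis factor family, LYPD8 and MRNIP held 2 each and were the shortest of 56 genes with 2. With peaks within 1000 nt counted as 1, LYPD8, MRNIP and the unnamed gene held 1 and LINGO2 held 2. None of the vehicle peaks in these 8 genes matched Alu. NBPF19 belongs to a family of near-identical copies, so the place of its peaks is uncertain.

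With Aβ1–42 peaks only, 2 genes held 5 peaks and 13 held 4, of which the 6 shortest are given. RYR3, a calcium release channel, held 5, of which 2 did not match Alu. RABGAP1L, a regulator of Rab GTPases, held 5, 1 of them without a match. The genes VMP1, needed for autophagosome formation, JAK1, a cytokine receptor kinase, MYO1D, an unconventional myosin, and NUP210L held 4 each, and each of these peaks matched Alu. F13A1, the catalytic subunit of coagulation factor XIII, and CROCC, the ciliary rootlet protein, held 4 each with 1 outside Alu. VMP1 and NUP210L held 11.0 and 13.1 Alu matches per 10 kb, and F13A1 held 1.81.

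Short genes could be reached by few peaks, so their highest-scoring peaks were listed separately. Among genes no longer than the median, the highest scores with vehicle peaks only were in BTNL9 (212.8, intron 2), SART1, a splicing factor (208.7, intron 12), DUX4, a transcription factor gene within a repeat array (114.1), EOLA1 (108.8, intron 2) and CTLA4, an inhibitory receptor of T cells (89.7, intron 1). With Aβ1–42 peaks only they were in PRR19 (145.3, intron 1), GINS4, a subunit of the replicative helicase (131.0, intron 4), ASTL (124.1, intron 8), OR4M1, an olfactory receptor (115.3, intron 1), and FMOD, the collagen-binding fibromodulin (107.0, intron 1). The peaks in PRR19 and GINS4 matched Alu. The peak in OR4M1 was also counted for OR4N2. Scores are −log10(p) multiplied by 10, as MACS gave them, and rank peaks within a list only.

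Among genes in both lists, PTPRN2 and CNTNAP2 held most peaks, 16 each. PTPRN2, a phosphatase-like protein of secretory vesicles, held 8 vehicle and 8 Aβ1–42 peaks in 1049 kb. Only 1 of the 16 matched Alu, an Aβ1–42 peak. CNTNAP2, a neurexin-family adhesion protein and one of the longest human genes at 2305 kb, held 3 vehicle and 13 Aβ1–42 peaks, and 11 of the 13 matched Alu. FGGY, a carbohydrate kinase, went the other way with 5 vehicle peaks, none Alu-matching, and 2 Aβ1–42 peaks, both Alu-matching. DMD, which encodes dystrophin, held 3 and 5, FHIT, at a common fragile site, 4 and 3, and IL1RAPL1, a synaptic adhesion protein, 3 and 4. GSE1 held 3 and 4. TTC34 held 3 and 3, and was the shortest of 5 genes with 6 peaks. With peaks within 1000 nt counted as 1, PTPRN2 held 7 vehicle peaks and IL1RAPL1 held 3 Aβ1–42 peaks. The other counts of these genes did not change. PTPRN2 and CNTNAP2 lie on chromosome 7, where 83 genes held a vehicle peak against 55.4 expected from their lengths, and 172 an Aβ1–42 peak against 130.0. The part of chromosome copy number in these values was not tested.

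**Figure D4:**
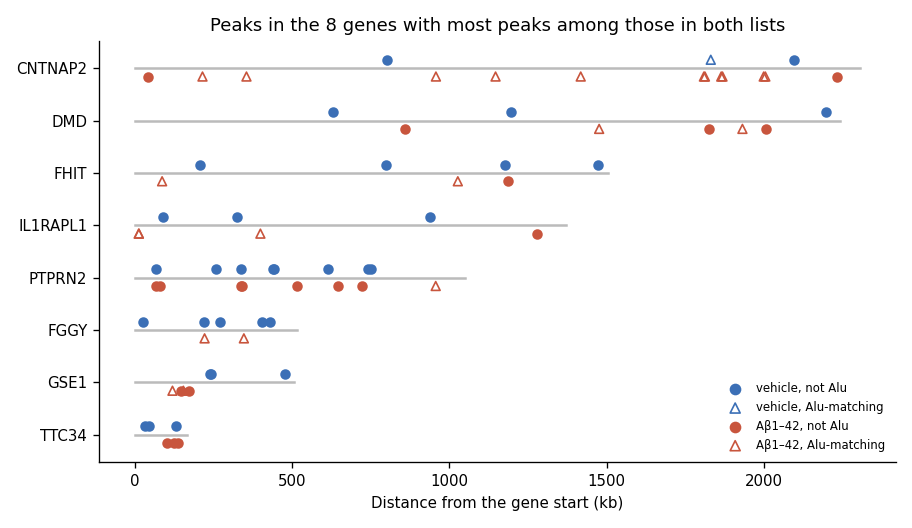
Peaks in the 8 genes with most peaks among those in both lists, by distance from the gene start (horizontal axis, kb), with 1 line per gene; blue marks are vehicle and red marks Aβ1–42 peaks, and open triangles match Alu. Most red marks in CNTNAP2 are open triangles (11 of 13), against 1 of 8 in PTPRN2.

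Sharing a gene rarely meant sharing a site. Of all peaks, 37.1% of the vehicle list and 47.6% of the Aβ1–42 list lay in protein-coding genes. Of 45 pairs of a vehicle and an Aβ1–42 peak that shared at least 1 nt, 8 lay in protein-coding genes, all in introns. These genes were ANAPC16, of the anaphase-promoting complex (intron 2), SBF2 (intron 1), the cadherin CDH13 (intron 8), SH3RF3 (intron 1), PLEKHG4B (intron 1), AMPH, a nerve terminal protein of endocytosis (intron 1), PTPRN2 (intron 1) and ERICH1 (intron 2). The shared part was 56 nt in ANAPC16 and 534 nt in SH3RF3, the shortest and longest. In SBF2 and SH3RF3 both peaks were rich in the CATTC pentamer, with at least 3 per 100 nt. Over all 45 pairs, inside and outside genes, the vehicle peak was rich in it in 28. No number of shared sites expected from the lists is given. In the other genes of both lists the nearest peaks were apart, and over all 318 genes the median distance was 57.9 kb, or 21.7% of the gene. Within 10000 nt of each other lay the nearest peaks of 48 genes.

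By kind of gene, the Aβ1–42 share of peaks was compared with that of all genes. Pairs of a peak and a gene were counted, so a peak in several genes counted for each of them. The share is the number of Aβ1–42 pairs over the pairs of both lists in the genes of a kind. In this way list size is the same for each kind. Over all protein-coding genes the share was 72.7% (interval 71.3 to 74.1), and 34.6% (interval 32.3 to 37.0) without Alu-matching peaks. It changed with gene length, to 65.1% in the longest bin, so a second baseline, chosen after the data had been seen, was computed for each kind from the peaks per Mb of its length bins. Of 28 kinds, 13 held at least 20 such pairs, and their shares ran from 59.5% to 81.0%, against 65.8% to 76.4% expected from length. The 95% intervals of these 13 held both 72.7% and the share expected from length. Without Alu-matching peaks those of 12 of the 13 held 34.6% and the share expected from length. The intervals are wide, do not show that the kinds are alike, and were not widened for the number of kinds. The other kinds held too few peaks for a comparison of shares.

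**Figure D5:**
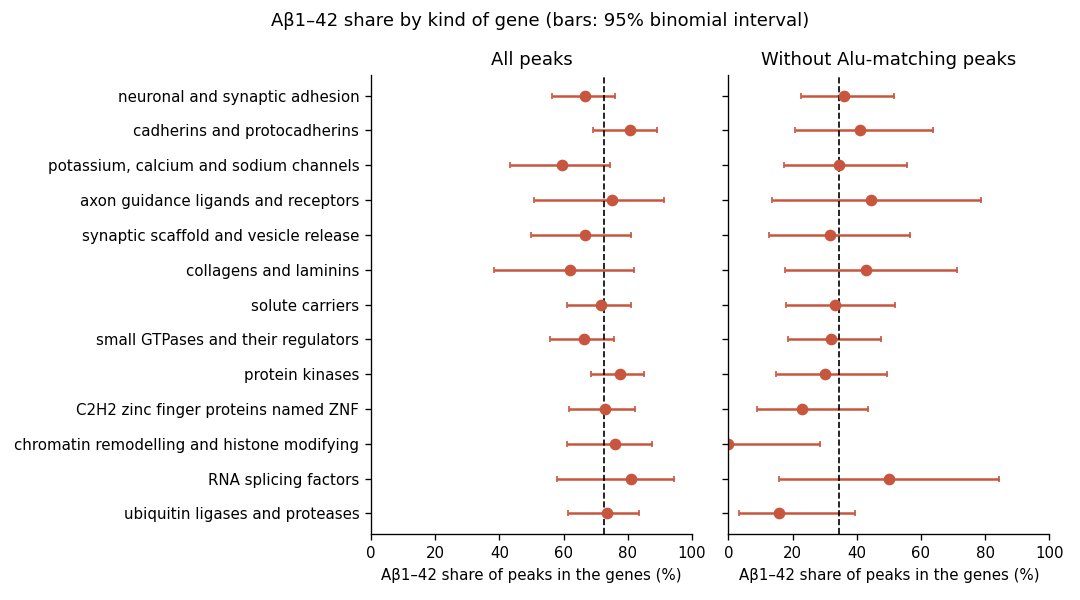
Aβ1–42 share of the pairs of a peak and a gene for each kind with at least 20 pairs (horizontal axis, percent), for all peaks and without Alu-matching peaks; bars are 95% binomial intervals and dashed lines the share over all genes, 72.7% and 34.6%. Only chromatin genes without Alu-matching peaks, at 0, lie wholly to one side of the line.

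Genes of neuronal and synaptic adhesion were long, and more of them held a peak of each list than their length bins gave. Of 73 genes of neuronal and synaptic adhesion, which encode proteins that hold nerve cells together such as CNTNAP2, TENM2, SDK2 and IL1RAPL1, 23 held a vehicle peak against 14.6 expected from length, and 34 an Aβ1–42 peak against 24.7. The longest bin spans 266.4 to 2474 kb. Counted per Mb, they held 0.850 vehicle and 1.70 Aβ1–42 peaks, against 0.811 and 1.51 in all genes of the longest bin. Their Aβ1–42 share was 66.7% (interval 56.3 to 76.0), against 65.8% expected from length, and 18 held both. TENM2 held 2 vehicle and 3 Aβ1–42 peaks and SDK2 held 1 and 3. Among 102 cadherins and protocadherins, 12 held a vehicle peak against 10.0 expected and 47 an Aβ1–42 peak against 21.2. The second count rests on overlapping genes of the protocadherin clusters, since the 54 pairs of a peak and a gene came from 23 distinct Aβ1–42 peaks, and 1 peak of the list touched 19 genes. Outside Alu, 7 of these genes held an Aβ1–42 peak against 4.9 expected. CDH12 held 1 vehicle and 4 Aβ1–42 peaks, and CDH4 held 2 and 2, none of which matched Alu.

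Receptors, channels and guidance genes of neurons held vehicle peaks at or below their expectation. Of 26 glutamate receptor genes 3 held a vehicle peak (5.3 expected) and 12 an Aβ1–42 peak (9.0 expected), among them GRIA1 and GRM5 with 1 of each and GRIA3 with 2 Aβ1–42 peaks. Of 127 genes of potassium, calcium and sodium channels 13 held a vehicle peak (13.2 expected) and 22 an Aβ1–42 peak (26.0 expected). Of 72 axon guidance genes 5 held a vehicle peak (8.2 expected) and 12 an Aβ1–42 peak (15.7 expected). Each of the 5 with a vehicle peak, including ROBO2, EPHA6, EPHB1 and EFNA5, also held an Aβ1–42 peak. Scaffold and matrix genes were close to expectation. Of 63 genes of synaptic scaffold and vesicle release 11 and 19 held peaks, against 9.6 and 17.8 expected, with DLG2 at 1 and 4 and MAGI2 at 1 and 3. Among 56 collagens and laminins the counts were 7 and 13, against 6.7 and 13.8.

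Among signalling genes, protein kinases held Aβ1–42 peaks more often than length gave. Of 234 kinases 62 held an Aβ1–42 peak against 48.3 expected, and 23 a vehicle peak against 22.5. Outside Alu there was no excess, with 9 kinases holding an Aβ1–42 peak against 11.2 expected. JAK1 held 4, and TAOK3, MAP3K13 and PRKCA held 3 each, all matching Alu. Of 240 small GTPases and their regulators 28 held a vehicle peak (21.5 expected) and 43 an Aβ1–42 peak (46.4 expected). Solute carriers were at 21 and 52 of 367 genes, against 18.9 and 49.5.

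Among nuclear genes, those of chromatin remodelling and histone modification and those of nuclear receptors held no Aβ1–42 peak outside Alu. Of 162 chromatin genes 10 held a vehicle peak (11.6 expected) and 28 an Aβ1–42 peak (28.6 expected). Their 11 vehicle peaks all lay outside Alu and their 35 Aβ1–42 peaks all matched Alu, as in HDAC1, a histone deacetylase, SMARCA4, a remodelling ATPase, and KDM5B, a histone demethylase, with 2 each. By length, 6.0 of these genes were expected to hold an Aβ1–42 peak outside Alu. With 0 of 11 peaks outside Alu, the share of Aβ1–42 could be up to 28.5% (upper bound of the interval), below the 34.6% of all genes. This interval was not widened for the number of kinds. No Aβ1–42 peak outside Alu lay in nuclear receptor, heat shock, mitochondrial ribosomal or cholinergic genes either. The numbers of such genes expected from length were 2.0, 1.2, 0.9 and 0.7. Of 46 nuclear receptors 5 held a vehicle and 5 others an Aβ1–42 peak, against 3.9 and 8.7 expected. Of 509 zinc finger genes named ZNF 21 and 56 held peaks, against 16.1 and 49.9.

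Among genes of general cell function, most kinds held fewer Aβ1–42 peaks than length gave. Of 85 cytosolic ribosomal protein genes none held a vehicle peak (0.6 expected) and 4 an Aβ1–42 peak (2.2 expected), with RPL23A and RPL27A at 1 each outside Alu. Aβ1–42 peaks lay in 1 of 77 mitochondrial ribosomal protein genes (4.6 expected), 3 of 109 respiratory chain genes (6.9 expected) and 4 of 85 genes of heat shock proteins and co-chaperones (7.4 expected). Vehicle peaks lay in 0, 1 and 1 of these, against 1.6, 2.3 and 2.4 expected. Of 387 genes of ubiquitin ligases and proteases 18 held a vehicle peak (18.9 expected) and 44 an Aβ1–42 peak (51.8 expected), and 3 of them held an Aβ1–42 peak outside Alu against 10.0 expected. Of 415 olfactory receptors, which are no genes of general function, 4 and 7 held peaks, against 1.9 and 5.6.

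Of 40 genes of APP processing and binding 5 held a vehicle peak (3.8 expected) and 9 an Aβ1–42 peak (8.3 expected). APP, the amyloid precursor, held 1 Aβ1–42 peak and no vehicle peak. The Alu copy used to find Alu matches was taken from this place in APP, so the match of this peak was fixed by that choice. The study also tested the region of this peak by quantitative PCR on precipitated chromatin. It reported SATB1 enrichment after vehicle and after amyloid-β, with no statistical difference between the treatments. The lack of a vehicle peak in APP therefore does not show that SATB1 was absent there after vehicle. APBA1 held 2 Aβ1–42 peaks and NAE1 and APBB1 held 1 each, all outside Alu, and APBB2 held 1 that matched Alu. ADAM12, APBA2 and RTN1 held 1 vehicle peak each, and ADAM10, ADAM17 and APPBP2 held no SATB1 peak. Of 34 genes at risk loci 5 and 8 held peaks, against 3.2 and 7.0 expected. INPP5D, a lipid phosphatase of immune cells, held 2 vehicle peaks, MTHFD1L and PRUNE2 held 2 and 1 Aβ1–42 peaks that matched Alu, GAB2 held 1 outside Alu, and BIN1 and CR1 held none. Of 29 cholinergic genes 3 held vehicle peaks (1.3 expected) and 3 others Aβ1–42 peaks (3.4 expected), with CHAT itself at 1 vehicle peak in intron 4.

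By chromosome, the Aβ1–42 share of pairs of a peak and a gene was highest on chromosomes 21, 17 and 19. It was 84.2% on chromosome 21 (interval 68.7 to 94.0), 82.9% on chromosome 17 (interval 77.5 to 87.5) and 82.4% on chromosome 19 (interval 76.3 to 87.5). These intervals were not widened for the number of chromosomes. The intervals of 3 chromosomes left out the 72.7% of all genes, those of 17 and 19 from above and that of chromosome 8, at 64.4% (interval 56.0 to 72.1), from below. Genes held 6.45 Alu matches per 10 kb on chromosome 17 and 8.60 on chromosome 19, against 4.22 over all genes. Alu density and share did not always go together, as genes of chromosomes 16 and 22 held 6.26 and 6.25 with shares of 75.9% and 70.2%, and those of chromosome 21 held 3.92. Without Alu-matching peaks, Aβ1–42 had 42 of 77 pairs on chromosome 17 (54.5%), 10 of 36 on chromosome 19 (27.8%) and 15 of 21 on chromosome 21 (71.4%).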

How the data were processed

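Peak lists were analysed as the authors deposited them, 1 for each SATB1 library. The authors mapped reads to hg38 with BWA and repeat-masking, called peaks with MACS and took out those that the matching input also gave. The deposited score is −log10(p) multiplied by 10, and its lowest values were 50.02 and 50.01. Read numbers are given in the sources only as a range over samples, not per library. Genes were the 19962 protein-coding genes of GENCODE 44 on chromosomes 1 to 22 and X. A peak counted for each gene it touched. Expected numbers came from 20 equal bins of gene length. The list size was matched with the exact probability that a gene keeps a peak. Alu matches were found with blastn 2.17.0 (e-value 1e-05) against a 287 nt copy in APP, which gave 1040403 matches after neighbours were merged. Scripts ran under Python 3.11.15 (scipy 1.17.1, pandas 2.3.3, pysam 0.24.0, numpy 2.4.6), with all 6 of 6 checks on simulated data passed. The text names the 8 genes with most peaks in each class (ties to the shorter gene), the 5 short genes with the highest score in each single-list class, genes with overlapping peaks, up to 4 genes of each kind and the genes the study names. The members and gene lists were chosen with earlier results of these data known. Alternatives covered score, gene bounds, repeats, list size, merging and the length model. The input and 82-kDa ChAT libraries were not used here, and the base sequences of Alu-matching peaks and some single genes are not reported here.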

Additional observations from a re-analysis of the deposited data

How the results depend on the processing

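No paired analysis was possible because there was 1 library for each treatment. Outside the values below, the counts of genes, the ratio of observed to expected genes in both lists, the median lengths, the overlaps and the Aβ1–42 share stayed within 1.5 times the count or within their 95% intervals, in 49 of 68 recomputed values. With scores at or above the median of each list, genes with vehicle peaks only, Aβ1–42 peaks only and both numbered 421, 1277 and 118, with median lengths of 149.7, 102.0 and 463.8 kb. Without Alu-matching peaks, genes with Aβ1–42 peaks only and both numbered 401 and 106, the ratio was 1.46, the median lengths 139.9, 106.6 and 419.5 kb, and the Aβ1–42 share 34.6%. With the Aβ1–42 list reduced to its highest-scoring peaks, genes with Aβ1–42 peaks only and both numbered 1138 and 194, with median lengths of 97.3 and 425.8 kb and a share of 57.3%. With 1 rate a list times gene length, the ratio was 0.920. Fewer peaks entered the first 3 of these alternatives by construction; the cause was otherwise not tested. Of 222 recomputed shares by kind of gene, 188 stayed within their intervals, and 19 of the 34 that did not came from leaving out Alu-matching peaks. The intervals of all 13 kinds with at least 20 pairs of a peak and a gene held the baseline share with either baseline, the second of them chosen after seeing the data. The overlapping pairs in genes numbered 8 with at least 50% of the shorter peak shared and 9 within 200 nt. Intervals cover counting error only, and without replicates no spread between libraries is known.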
